A study of Caenorhabditis elegans with 2 samples.

Results

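Long stretches of the Caenorhabditis elegans autosomes in which no MRG-1 binding was called are described here. They were chosen by peak position alone: an interval was taken where 40 kb or more lay between the end of a peak and the start of the next one on the same autosome. Of the 3582 intervals between neighbouring peaks on the 5 autosomes, 478 met this minimum length. Because the peak positions chose them, their number and lengths are a description and carry no test. The peaks come from 1 chromatin immunoprecipitation sequencing (ChIP-seq) library made with a rabbit polyclonal antibody against MRG-1, for which the study also sequenced input DNA. The animals were fem-2(b245) hermaphrodites, adults that contain a germline, with a labelled culture temperature of 20 °C. The stage label calls them young, while the growth protocol describes gravid animals. The fem-2(b245) allele, a mutation in a sex determination gene, was carried by ChIP and input material alike, and whole adults were ground, so germline and somatic chromatin are mixed. There were no replicates, and read depth is unknown from a peak list.

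MRG-1 has a chromodomain and is related to mammalian MRG15, a reader of methylated lysine 36 on histone H3. It is known for its need in germ cell development and for its preference for autosomes over the X chromosome. Autosomes of C. elegans have a characteristic layout. Their central parts are rich in conserved and widely expressed genes, while their ends recombine more, hold more repeats and carry more of the histone marks of silent chromatin.

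The 478 long intervals were 13.3% of all autosomal intervals but held most of the sequence between peaks. They summed to 41.8 Mb, which was 64.5% of the 64.9 Mb between autosomal peaks and 50.8% of the 82.4 Mb of autosome up to the last peak of each chromosome. The other 3104 intervals summed to 23.1 Mb and had a median of 2456 bp. The shortest of the 478 long intervals measured 40136 bp and the longest 753422 bp, and their median was 68.4 kb between quartiles of 50.2 and 97.7 kb. The sum was spread over many of them. The 10 longest held 9.57% of it, the 50 longest 27.6%, and the 132 longest were needed to reach 50%.

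The minimum of 40 kb did not fall at a break in the lengths. Just below it were intervals of 39989 bp on I, 39973 bp on II and 39801 bp on V. Just above it were intervals of 40136 bp on IV, 40171 bp on III and 40277 bp on V. By length, 199 members measured 40 to 60 kb, 164 measured 60 to 100 kb, 92 measured 100 to 200 kb and 23 were of 200 kb or more. The 23 of 200 kb or more made up 4.81% of the members and 16.8% of their length.

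**Figure D1:**
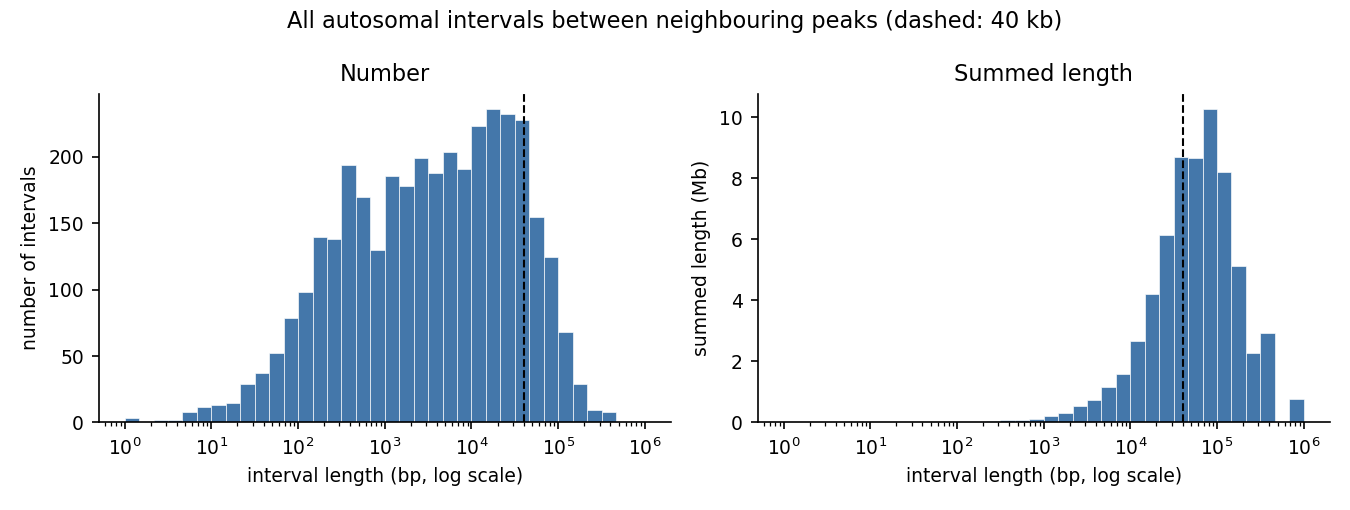
All 3582 autosomal intervals between neighbouring peaks, by length in bp on a log scale, as the number of intervals (left) and their summed length in Mb (right); the dashed line marks 40 kb. Intervals right of the line are few in number, 478, but hold 41.8 Mb.

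Outside the long intervals, MRG-1 peaks were dense. All 3587 autosomal peaks lay within the remaining 40.5 Mb, at 88.5 peaks per Mb and with 42.6% of that length covered by peaks. Over whole autosomes the values were 43.6 per Mb and 20.9%. The rule fixes this direction, since no member can hold a peak. The X chromosome, cut at the same length, had 104 long intervals among 194, with a sum of 16.3 Mb or 92.0% of its 17.7 Mb and a median of 126 kb. These X intervals are not members and the difference was not tested.

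The autosomes differed in how much of their length the long intervals took up. On V they filled 69.7% of the chromosome and on IV 58.0%. On II they filled 48.9%, on III 34.0% and on I 33.5%. V carried 140 of them, IV 115, II 91, and I and III 66 each. V thus held 29.3% of the members (95% exact Clopper-Pearson interval 25.2 to 33.6%) on 25.3% of the autosome length. The share on I was 13.8% (interval 10.8 to 17.2%), below its 18.2% of the length. The share on III was the same 13.8%, beside 16.7% of the length. These intervals cover counting error only and treat neighbouring stretches as independent.

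Chromosome V also had the longer members. The median was 76.6 kb on V, 67.8 kb on I, 67.4 kb on IV, 67.0 kb on II and 59.6 kb on III. The quartiles overlapped on all 5 chromosomes, from 52.4 and 129 kb on V to 50.1 and 81.7 kb on III. V held 49 of the 115 members of 100 kb or more and 13 of the 23 of 200 kb or more. IV held 22 and 5, and III held 11 and 0. The share of intervals that were long was 24.4% on V, 17.6% on IV, 14.0% on II, 8.30% on III and 7.27% on I.

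By number, long intervals were evenly divided between the central 50% of the chromosomes and their ends, while peaks and so intervals were fewer in the centres. Each held 239, so the share in the centres was 50% (95% exact interval 45.4 to 54.6%). The exact interval covers counting error only, treats neighbouring stretches as independent and serves as no test. Of all autosomal intervals, 42.9% lay in centres. Long ones were 15.5% of the 1537 intervals in centres and 11.7% of the 2045 in ends. Filled length went the other way: they filled 58.8% of the ends and 42.8% of the centres. The median member was 77.9 kb in the ends and 60.4 kb in the centres. The share lying in a centre fell with length class, from 118 of 199 (59.3%) at 40 to 60 kb to 85 of 164 (51.8%), 31 of 92 (33.7%) and 5 of 23 (21.7%) in the classes above. Of the 115 members of 100 kb or more, 79 lay in the ends (68.7%, 95% exact interval 59.4 to 77.0%). The ends held 2045 of all 3582 autosomal intervals. This exact interval has the same limits as the one above. Under a minimum of 60 kb the share in the centres was 43.4%.

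The 2 ends of a chromosome were often unlike. On II, long intervals filled 75.3% of the left end, the outer 25% of the chromosome, and 37.6% of the right end. On III the left end was likewise the emptier, at 52.7% against 26.2%. On IV it was the right end, with 79.4% against 53.3%, and on I also the right end, with 48.0% against 33.5%. V had high values in both, 77.5% on the left and 82.7% on the right. Centres ran from 26.3% on I and 28.5% on III through 41.3% on II and 49.6% on IV to 59.3% on V. The right end of III, at 26.2%, and the right end of II, at 37.6%, were less filled than the centres of the same chromosomes.

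**Figure D2:**
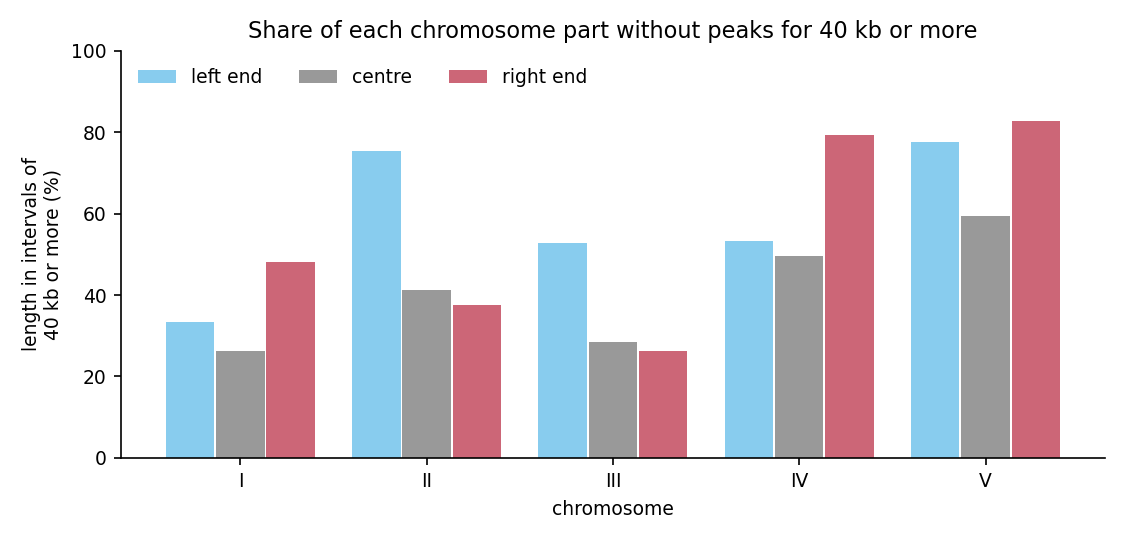
Percent of the length of each chromosome part that lay in intervals of 40 kb or more without a peak, for the left outer 25%, the central 50% and the right outer 25% of each autosome. The right end of V is highest at 82.7%, and the right end of III and the centre of I are lowest at 26.2% and 26.3%.

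On the scale of 1 Mb, every autosomal bin overlapped at least 1 long interval. Over 82 bins the median share inside long intervals was 47.6%, and the range was 8.68 to 89.9%. In 20 bins the share was over 70%, of which 13 were on V, 4 on IV and 3 on II, with none on I or III. In 16 bins it was under 30%, of which 7 were on I and 7 on III, 1 on II and 1 on IV. The bin least filled was on III from 8000001 to 9000000. The most filled were on V from 19000001 to 20000000 (89.9%) and on IV from 16000001 to 17000000 (89.8%).

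The 10 longest members all lay in chromosome ends, 7 of them on V and 3 on IV. All positions are in WormBase build WS220 and count from 1. The longest, 753 kb on IV at 15648464 to 16401885, was bordered by peaks of 1861 and 1383 bp. The second, on IV at 15050679 to 15467828, was 417 kb long between peaks of 2403 and 7546 bp. The third, on V at 2877152 to 3276933, was 400 kb long (399782 bp) between peaks of 1105 and 1415 bp. V also had intervals of 396 kb at 18137945 to 18533555, 373 kb at 19195494 to 19568692 and 359 kb at 17155773 to 17514294. These were followed by 347 kb on IV at 14115892 to 14463353. The last of the 10 were on V, at 16027908 to 16356994 (329 kb), 361986 to 687395 (325 kb) and 3760679 to 4065118 (304 kb). The flanks of these 10 members spanned widths from 1105 to 8281 bp.

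The longest members of the other autosomes were shorter. That of I measured 269 kb, at 12215404 to 12483908, between peaks of 1772 and 1662 bp. That of II measured 243 kb, at 878215 to 1120825, between peaks of 4423 and 13965 bp. That of III measured 148 kb, at 1625995 to 1773881, between peaks of 9444 and 1624 bp. All 3 lay in chromosome ends.

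The 3 members over 300 kb on IV stood close together. From 14115892 to 16401885, a span of 2.29 Mb, 8 long intervals took up 91.9% of the length. Within it lay 15 peaks, which covered 4.53% of it. The bounds of this span were set after its intervals had been seen. Chromosome IV is known to carry large clusters of genes for piRNAs, small RNAs of the germline. Gene positions were not compared with the intervals here.

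**Figure D3:**
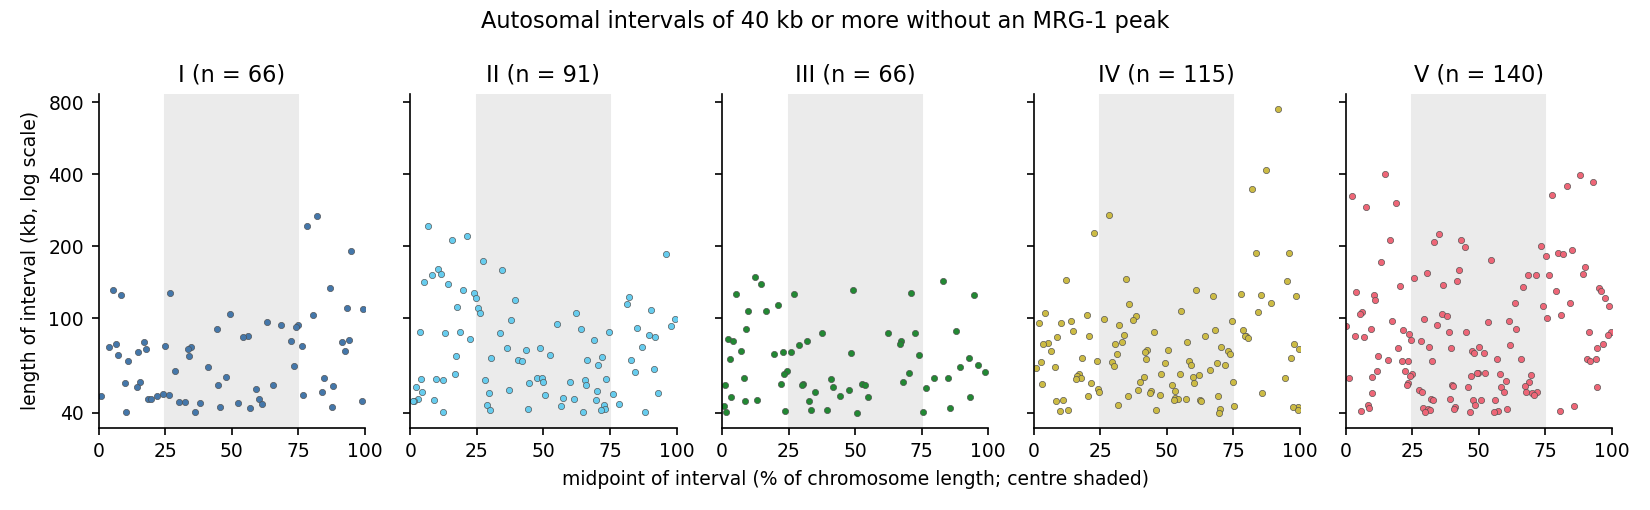
Length in kb (log scale) of each of the 478 long intervals against its midpoint in percent of the chromosome length up to the last peak, 1 panel per autosome, with the central 50% shaded. The points above 300 kb are the 10 longest members, 7 on V and 3 on IV, all outside the shaded centres.

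Some long intervals were next to each other. Of the 478, 168 shared a flanking peak with another long interval (35.1%, with a 95% exact interval of 30.9 to 39.6%), so that 1 peak alone separated them. Sharing is mutual, while the exact interval treats members as independent, so it is too narrow and serves as no test. Of all 3582 autosomal intervals, 24.1% had a long interval next to them. The 168 members formed 71 runs: 49 of 2 intervals, 18 of 3 and 4 of 4. The other 310 shared none. On V, 68 of 140 members shared a flanking peak (48.6%), beside 41.7% of all V intervals with a long neighbour. On IV it was 44 of 115 (38.3%), beside 31.3%, and on II 30 of 91, beside 25.2%. On I it was 15 of 66 (22.7%), beside 14.4%, and on III 11 of 66 (16.7%), beside 15.7%. The order of the chromosomes was nearly that of the share of their intervals that were long, with I and III exchanged. The share was 33.5% in centres, where 15.5% of intervals were long, and 36.8% in ends, where 11.7% were. The share of all intervals with a long neighbour was not computed for these parts. With peaks separated by under 1 kb joined into 1, the share over all autosomes was 43.9%. Joining removes short intervals but no long ones, and so by itself raises the share of intervals that are long. Within 20 kb of another long interval were 51.7% of the members, and within 50 kb 72.8%. For the joined list and for these distances, the share over all intervals was not computed.

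Of the 22 runs of 3 or 4 intervals, 12 were on V, 4 on IV, 4 on II, and 1 each on I and III. The longest run spanned 855 kb on V, from 2704227 to 3558810. Its 4 intervals of 172, 400, 66.9 and 212 kb (171820, 399782, 66921 and 212117 bp) were separated by peaks of only 1105, 1415 and 1424 bp. When peaks narrower than 1500 bp were removed from the list, these intervals joined into 1 of 859 kb, at 2704227 to 3563588. It then exceeded the longest of IV, which grew to 763 kb. The next run, also on V, spanned 776 kb from 15580945 to 16356994 and held 4 intervals around peaks of 4433, 3444 and 5277 bp. Then came 718 kb on V from 18137945 to 18855808 (peaks of 2897 and 2794 bp), 649 kb on IV from 14115892 to 14765036 (5819 and 2320 bp) and 542 kb on V from 361986 to 904467 (1387 and 2444 bp).

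The 97 peaks that stood alone between long intervals were not all narrow. The narrowest measured 1084 bp and the widest 21562 bp. The median was 3919 bp, between quartiles of 1861 and 6710 bp. Of them, 39 were wider than 5 kb (40.2%) and 19 narrower than 1500 bp (19.6%). Over all autosomal peaks these shares were 32.8% and 24.1%. Over all 859 peaks that border a long interval, of which the 97 are part, they were 39.8% and 14.8%. A run on V from 9733908 to 9978065, in the chromosome's centre, was broken by peaks of 15745, 7295 and 5304 bp.

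**Figure D4:**
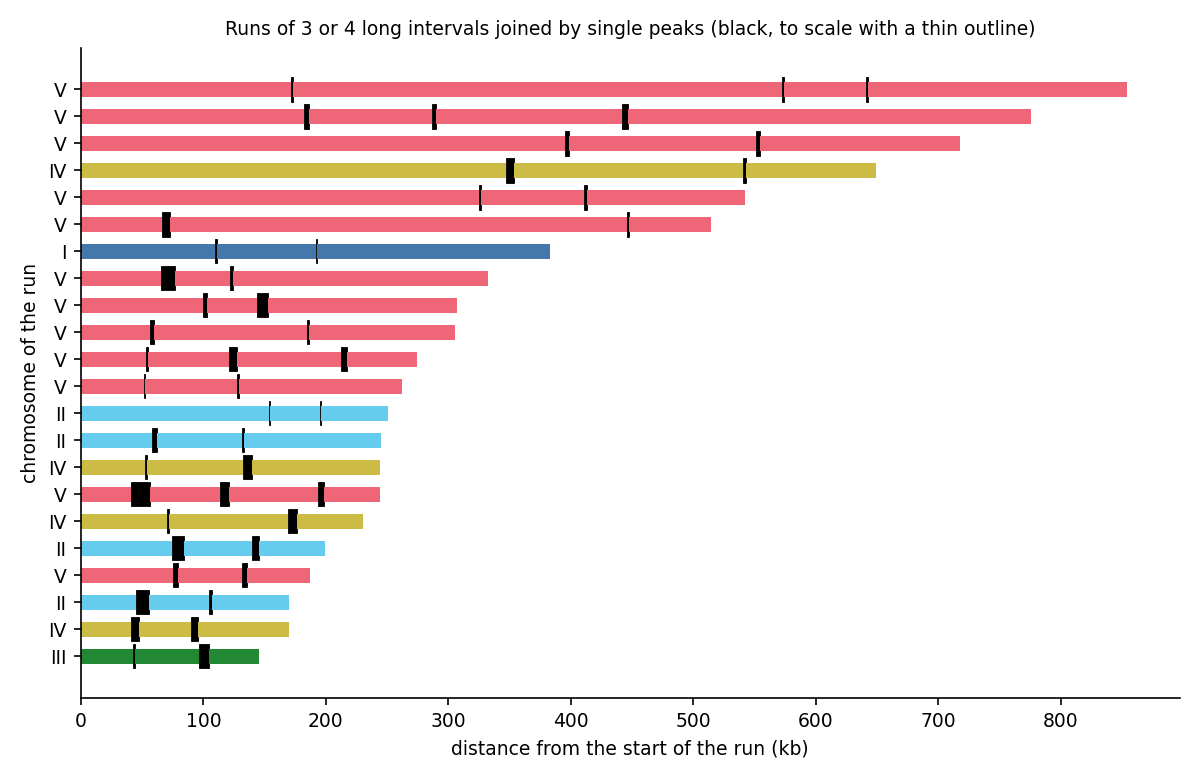
The 22 runs of 3 or 4 long intervals joined by single peaks, ordered by span, with distance from the start of the run in kb; coloured bars are intervals without a peak, black bars the peaks between them, and the label is the chromosome. The longest run spans 855 kb with 3 narrow peaks, and 12 of the 22 runs are on V.

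Between neighbouring long intervals lay 473 blocks of peaks. The median block was 45.5 kb long (quartiles 11.03 and 114 kb) and held 4 peaks (quartiles 2 and 10). In 205 blocks (43.3%) there were 3 peaks or fewer, and in 123 there were 10 or more. The median block measured 23.1 kb on V, 39.1 kb on IV, 44.7 kb on II, 86.4 kb on III and 112 kb on I. The median number of peaks per block had the same order: 3 for V, 4 for IV, 5 for II, 9 for III and 11 for I. A block ends at a long interval, so these counts are not independent of the share of intervals that were long, given above. Peak coverage within blocks differed less between chromosomes, from 37.9% on V and 41.3% on II to 44.1% on IV, 44.3% on I and 44.4% on III. The longest block without a break of 40 kb was on III, from 7571334 to 8518696, and held 53 peaks over 947 kb. The next were 541 kb on III, from 8605538 to 9146590, and 495 kb on I, from 14354698 to 14849985. The latter, with 50 peaks, began where a run of 3 long intervals of 110, 80.7 and 190 kb (109674, 80705 and 190421 bp) ended.

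The width of the peaks that border the long intervals was not used to choose them. The 859 flanking peaks, 23.9% of all autosomal peaks, had a median width of 3969 bp, with 1984 and 7571 bp as quartiles. The 2728 other autosomal peaks had a median of 2625 bp, with 1430 and 5915 bp as quartiles. The difference of 1344 bp is a description of 1 peak list and has no test. Narrow peaks were fewer at the borders: 127 flanking peaks were under 1500 bp (14.8%), against 24.1% of all autosomal peaks. Peaks wider than 5 kb numbered 342 (39.8%), against 32.8% of all autosomal peaks. The median flanking peak was the wider on all 5 autosomes, from 3678 against 2834 bp on III to 3946 against 2357 bp on I.

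This difference varied with position and with the joining of close peaks. In the ends the medians were 2573 bp for flanking and 1829 bp for other peaks, and in the centres 5461 and 5023 bp. Peaks with a neighbour less than 1 kb away made up 26.1% of flanking peaks and 58.1% of the others, a contrast partly fixed by the rule. Whether close peaks are parts of 1 peak was not tested. With peaks separated by under 1 kb joined into 1, the medians were 5117 and 4941 bp, a difference of 175.5 bp. Joined peaks of the ends still differed in the same direction (4039 and 3271 bp), while in the centres the direction turned (6478 and 6946 bp).

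**Figure D5:**
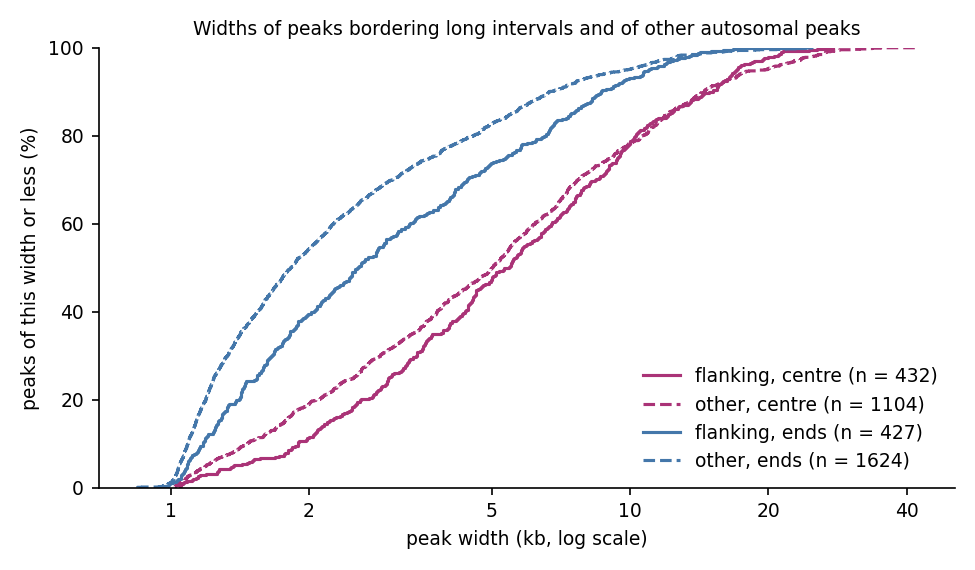
Cumulative percent of autosomal peaks by width in kb (log scale), for peaks that border a long interval (solid) and other peaks (dashed), in chromosome centres and ends. In the ends the solid line lies right of the dashed one, with medians of 2573 and 1829 bp; in the centres the lines lie closer, with medians of 5461 and 5023 bp.

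With centres and ends pooled, the median flanking peak was narrower beside longer intervals. The median was 4570 bp for intervals of 40 to 60 kb, 3601 bp for 60 to 100 kb, 3088 bp for 100 to 200 kb and 2968 bp for 200 kb or more. The classes differ in position, as given above. In the ends alone the medians were 2819, 2463, 2670 and 2275 bp, and in the centres 5825, 4890, 4594 and 6436 bp, the last from 10 peaks. Neither series fell at every step, and in the centres the class of 200 kb or more had the widest median. The left and right flanks were alike, with medians of 4031 and 3886 bp. Of the 478 members, 81 had a peak wider than 5 kb on both sides (16.9%), 219 on 1 side (45.8%) and 178 on neither (37.2%). Over all 3582 autosomal intervals these shares were 14.5%, 36.6% and 48.9%. Both flanks were under 1500 bp in 15 members (3.14%) and in 9.07% of all autosomal intervals.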

How the data were processed

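The authors' deposited file is a peak list for the MRG-1 ChIP library. Per the file headers its coordinates are WormBase WS220 and its peaks come from MACS. The submitters' processing notes name BWA and the build ce10. For versions, settings and the use of the input, the sources used here give nothing. Only peak starts and ends were used, never the peak score.

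Peaks were sorted by chromosome and start. The last base of its last peak stood for the length of a chromosome, so sequence after it was not analysed, nor before the first peak. An interval belonged to a centre (central 50%) by its midpoint, and filled length was counted base by base. Bins were of 1 Mb, and end bins under 0.5 Mb were left out. Shares have exact Clopper-Pearson intervals. No test was made. The finding of intervals was checked on 20 simulated peak lists with known intervals. Intervals were named by a rule: the 10 longest, the longest of each autosome, those nearest the minimum and the 5 longest runs. The span of 3 long members on IV, the bins and blocks of peaks named, and the runs on V in the centre and on I were chosen after their values were seen. The members and measures were chosen with earlier results of these data known. Genes, repeats and sequence were not analysed here, since the gene table at hand is on another build. Python 3.11.15, pandas 2.3.3, NumPy 2.4.6, SciPy 1.17.1 and Matplotlib 3.10.9 were used.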

Additional observations from a re-analysis of the deposited data

How the results depend on the processing

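Depth, peak caller settings, mappability of reads and binding below the calling threshold were not analysed here. No paired analysis was possible because there was 1 ChIP library, and no replicate could be left out. The number of long intervals was 645 at a minimum of 30 kb, 279 at 60 kb and 485 without peaks narrower than 1500 bp. The shares by chromosome stayed within their counting intervals in the alternatives run for them. Of these, merging within 1 kb could not change them, since it alters no interval of 40 kb or more. The 50% share in the centres was 43.4% at 60 kb and 42.1% counted by length. It ran from 48.8 to 51.0% when 1 chromosome at a time was left out. A smaller centre, the central 33% of each chromosome, held 30.5% of the members. The share of intervals with a shared flanking peak, 35.1%, was 44.0% at 30 kb, 26.2% at 60 kb, 43.9% after merging within 1 kb, 51.7% when grouped within 20 kb and 72.8% within 50 kb. The share over all intervals also changes with these settings and was not computed for them. The median flanking width of 3969 bp was 3432 bp at 60 kb, 4419 bp without narrow peaks, 5117 bp after merging, 2573 bp in ends, 5461 bp in centres and 6478 bp in merged centres. Its difference of 1344 bp from other peaks was 612.5 bp at 60 kb, 221.5 bp without narrow peaks, 175.5 bp after merging, 744 bp in ends and 438 bp in centres. In settings added after seeing the data it was 473 bp against other peaks with no neighbour within 1 kb, 671 bp when both kinds had none, 768 bp in merged ends and -467.5 bp in merged centres, where it turned round; the cause was not tested.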

Other observations

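The stretch before the first peak of a chromosome was not counted among the intervals, since no peak bounds it on the left. It measured 119 kb on IV and 57.4 kb on III, both above the minimum length, and 24.5 kb on II, 5.61 kb on V and 4.02 kb on I.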
